A study of Macaca mulatta with 9 samples.

Results

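MicroRNA loci were followed in whole-blood RNA of rhesus macaques (Macaca mulatta). The deposited table lists 24371 genes, and 132 of them carry a microRNA symbol. Of these, 57 had a length-scaled per-million value of at least 1 in 3 or more of the 9 libraries and are described here, and the other 75 did not reach that level. The 57 loci were chosen by their deposited values in all 9 libraries, so their presence in the table is a description and not a result. At the limit, the third-highest value was 1.004 for MIR33B and 1.01 for MIRLET7B, just inside, and 0.961 for MIR29A and 0.871 for MIR761, just outside.

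The 9 animals had been divided at random into 3 groups of 3. One group was injected with extracellular vesicles of antler blastema progenitor cells (ABPC_EV), one with extracellular vesicles that the labels call FBMSC and do not explain (FBMSC_EV), and one with the vehicle PBS, whose sample descriptions read Old1 to Old3. All 9 animals are labelled as wild type, each library comes from a different animal, and neither dose nor duration nor age is labelled. Total RNA went into a NEBNext Ultra library kit, which does not mark strand, and was read as pairs on an Illumina platform.

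A microRNA is cut from a hairpin inside a longer transcript by DROSHA and DGCR8, exported, cut again by DICER1 and loaded onto an Argonaute protein, which it guides to messenger RNAs that it represses. Many hairpins lie in introns of protein-coding host genes, and others lie in non-coding transcripts of their own. In blood, miR-223 is known from granulocytes and monocytes, miR-142 from all blood lineages, miR-150 from mature lymphocytes and miR-451 from red cells. A library kit of this kind is not made to capture mature microRNAs, so the values below are reads over the hairpin interval of each locus and mature microRNA levels were not measured.

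Few reads stood behind most of these loci. The table gives log2 values only, but their steps give back whole reads for 24368 of the 24371 genes. Of the 57 loci, 56 had a hairpin-sized length of 56 to 122 bases (median 84 bases), and MIR155HG, the host transcript of miR-155, had 962 bases. The recovered length equalled the RefSeq hairpin length for all 55 loci that have one there. Together the 57 loci held 4646 reads, 40.5% of them at MIR142 and MIR223. The median locus had 24 reads over all 9 libraries, the range was 7 to 1021, and 38 loci had under 50. Reads were present in all 9 libraries at 16 loci, and 3 loci (MIR142, MIR223 and MIR29C) had 10 or more reads in every library.

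**Figure D1:**
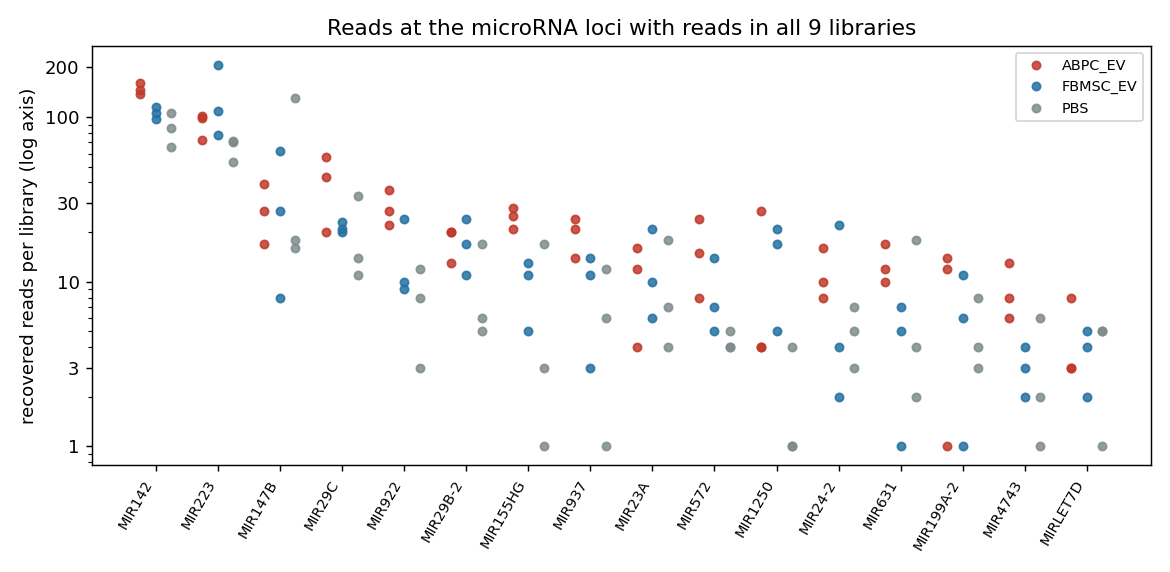
Recovered reads per library (log axis) at the 16 microRNA loci with reads in all 9 libraries, 1 point per animal. Loci are ordered by their reads over the 9 libraries together. MIR142 (66 to 161 reads) and MIR223 (53 to 207 reads) had the most reads in all, MIR147B reached 131 in PBS replicate 2, and the 3 groups overlap at most loci.

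Total depth was similar, at 11.7 to 13.1 M reads in ABPC_EV, 12.6 to 13.3 M in FBMSC_EV and 11.9 to 14.5 M in PBS libraries (1 M is 1000000). Reads at the 57 loci numbered 614, 680 and 705 in ABPC_EV, 645, 447 and 467 in FBMSC_EV and 219, 483 and 386 in PBS libraries. Globin genes took 76.2 ± 5.82% of the per-million total in ABPC_EV, 84.2 ± 3.01% in FBMSC_EV and 89.7 ± 2.57% in PBS blood (SD, n = 3 each). All 8 erythroid, 8 T cell, 6 cytotoxic, 6 B cell, 7 neutrophil and 6 monocyte markers checked, and the 5 platelet markers of 6 that are in the table, had values in all 9 libraries. Replicates are separate animals, per the labels, and fewer cells of a type cannot be told apart from less RNA per cell.

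Dividing by length makes a single read at a hairpin worth a lot, and worth different amounts in different libraries. At the median length of 84 bases, 1 read added 0.754, 1.11 and 1.002 to the per-million value in the ABPC_EV libraries, 0.726, 0.732 and 0.671 in the FBMSC_EV libraries and 0.574, 0.543 and 0.695 in the PBS libraries. A value of 1 therefore took 1 read in ABPC_EV replicates 2 and 3 and 2 reads in each of the other 7 libraries. Median-ratio scaling, which divides each library by its median ratio to the average library, used factors of 2.07 ± 0.505 in ABPC_EV, 1.05 ± 0.136 in FBMSC_EV and 0.522 ± 0.223 in PBS (SD, n = 3 each). After it the order turns round, and 1 read added 0.495, 0.513 and 0.398 in ABPC_EV, 0.736, 0.607 and 0.701 in FBMSC_EV and 1.74, 1.15 and 0.907 in PBS libraries.

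**Figure D2:**
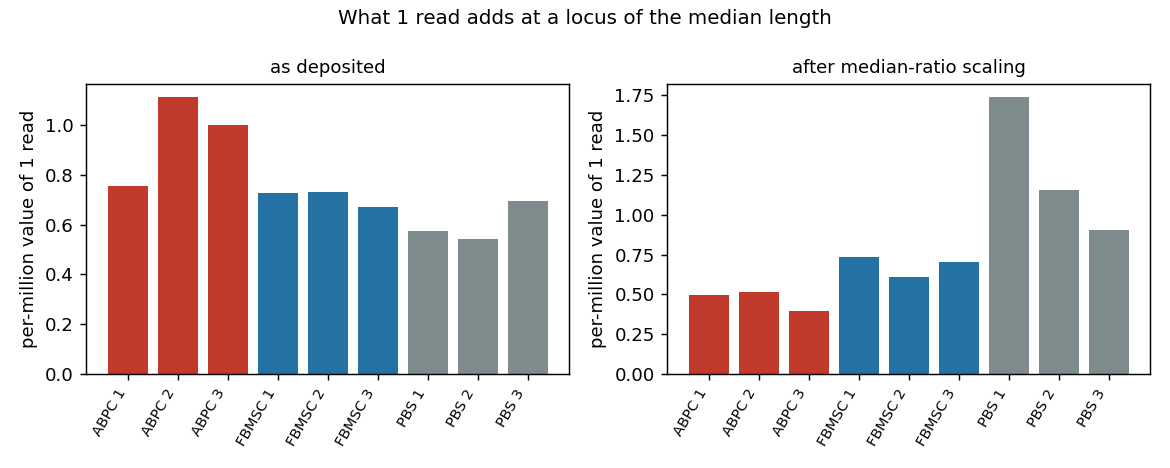
What 1 read adds, in per-million units, at a locus of 84 bases in each of the 9 libraries, as deposited (left) and after median-ratio scaling (right). As deposited a read weighs most in ABPC_EV replicate 2 (1.11), and after scaling it weighs most in PBS replicate 1 (1.74).

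The level rule favoured the vesicle groups. A value of at least 1 in all 3 libraries was reached by 33 of the 57 loci in ABPC_EV, 23 in FBMSC_EV and 13 in PBS, and 44 loci entered with fewer than 3 PBS libraries at that level. No locus was without reads in all 3 ABPC_EV libraries, 1 was in FBMSC_EV and 9 were in PBS. Counts over the 57 loci below carry this imbalance.

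MIR142, the locus with the most reads, gives rise to a microRNA found throughout the blood lineages. It had 146, 161 and 138 reads in ABPC_EV, 106, 97 and 115 in FBMSC_EV and 66, 106 and 86 in PBS libraries. All 3 ABPC_EV libraries had more reads than any of the other 6. Scaled values reversed this order, with 67.5 ± 13.5 in ABPC_EV, 70.0 ± 11.5 in FBMSC_EV and 101 ± 22.9 in PBS blood (SD, n = 3 each). In limma on log2(scaled value + 1), adjusted by Benjamini-Hochberg over 10596 genes, the log2 fold change of MIR142 was -0.57 ± 0.28 (SE) for ABPC_EV against PBS (adjusted p = 0.534) and -0.51 ± 0.28 for FBMSC_EV against PBS (adjusted p = 0.998). As deposited, the first was 1.44 (limma adjusted p = 0.00329), beside a median shift of all genes of 1.41.

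MIR223, a locus of the granulocyte and monocyte lineages, had 99, 101 and 72 reads in ABPC_EV, 207, 78 and 109 in FBMSC_EV and 53, 70 and 71 in PBS libraries. Its scaled values were 37.4, 39.5 and 21.9 in ABPC_EV, 116, 36.2 and 58.4 in FBMSC_EV and 70.3, 61.7 and 49.2 in PBS libraries. The ABPC_EV libraries all lay below the PBS libraries on this scale, and the FBMSC_EV libraries overlapped both groups. The log2 fold change for ABPC_EV against PBS was -0.88 ± 0.41 (SE), which missed the threshold (limma adjusted p = 0.506), whereas as deposited it was 1.11 (limma adjusted p = 0.0243). The summed scaled level of 7 neutrophil markers was 725, 1070 and 384 in ABPC_EV, 3129, 571 and 883 in FBMSC_EV and 1109, 2254 and 482 in PBS libraries. FBMSC_EV replicate 1, which had the most MIR223 reads, was also highest in that sum, and the part of neutrophil number in the MIR223 values was not tested.

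**Figure D3:**
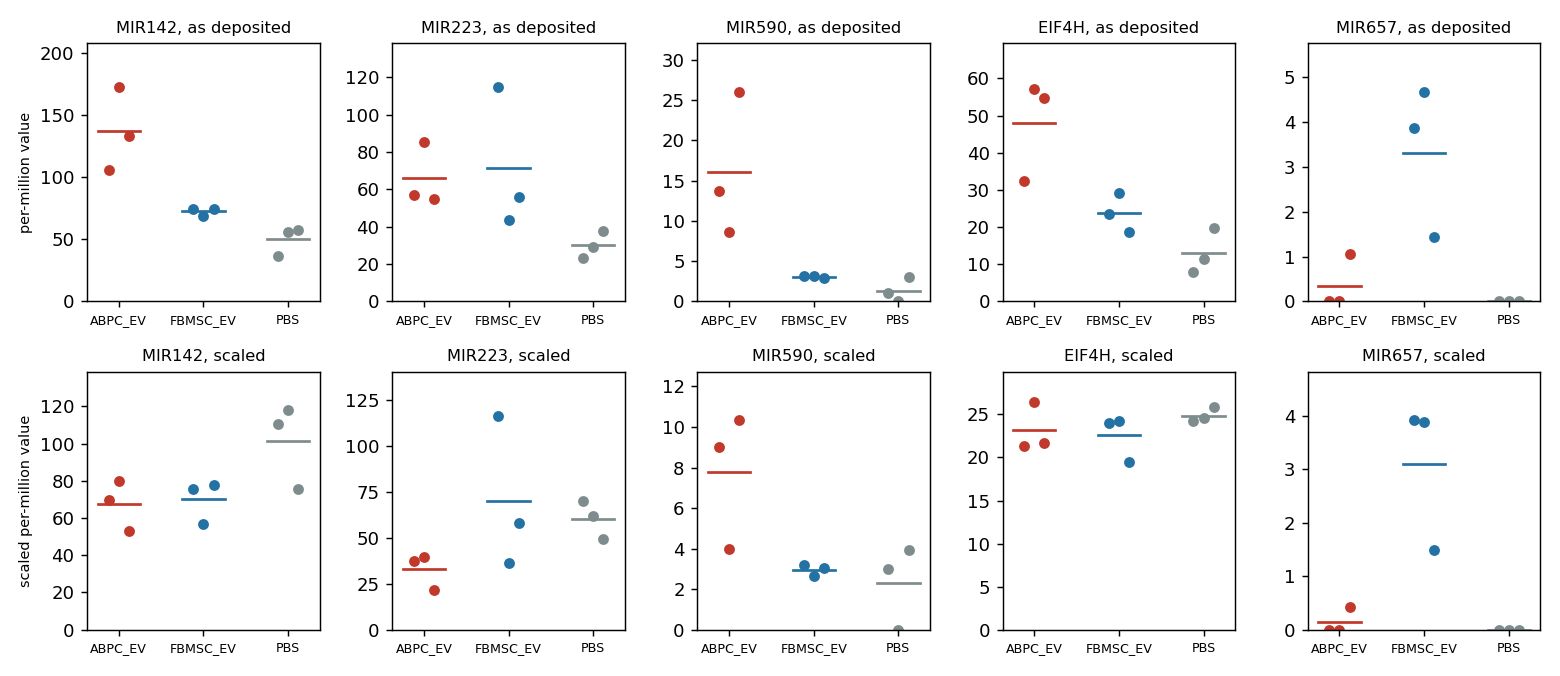
Values of MIR142, MIR223, MIR590, its host gene EIF4H and MIR657 in the 9 libraries, as deposited (top) and after median-ratio scaling (bottom). Points are animals and bars are group means; MIR142 averages 137 in ABPC_EV and 49.95 in PBS blood as deposited but 67.5 and 101 scaled, while MIR590 is highest in ABPC_EV on both scales.

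MIR451, the red cell microRNA that is cut by AGO2 in place of DICER1, had only 18 reads in all. These were 0, 3 and 1 in ABPC_EV, 5, 2 and 0 in FBMSC_EV and 1, 4 and 2 in PBS libraries. Scaled, MIR451 joined MIR223 as 1 of the 2 loci whose ABPC_EV libraries all lay below the PBS libraries, with a log2 fold change of -1.29 ± 0.59 (SE, limma adjusted p = 0.493). The summed scaled level of the 8 erythroid markers was 430671, 232773 and 225967 in ABPC_EV, 613416, 531565 and 726930 in FBMSC_EV and 2104250, 1404870 and 882153 in PBS libraries, with all ABPC_EV libraries below all PBS libraries. As deposited the sums were much closer, at 504314 to 655215 in ABPC_EV, 604419 to 695966 in FBMSC_EV and 660268 to 695054 in PBS, so the size of the scaled gap depends on the scaling factors. The globin genes HBB and HBA1 are on this list and weigh heavily in the sum. The part of the erythroid level in the MIR451 values was not tested. ABPC_EV replicate 1 was at 0 MIR451 reads, and 0 reads leave up to 3 possible at this depth. MIR144, its neighbour within 10000 bases, did not reach the level rule, and 10 of its 12 reads came from PBS replicate 2.

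MIR155HG, whose transcript is induced in activated lymphocytes and macrophages, had 21, 25 and 28 reads in ABPC_EV, 5, 11 and 13 in FBMSC_EV and 3, 1 and 17 in PBS libraries. The ABPC_EV libraries exceeded the FBMSC_EV libraries in reads and in scaled value, which averaged 1.0 ± 0.108 in ABPC_EV, 0.567 ± 0.238 in FBMSC_EV and 0.634 ± 0.642 in PBS blood (SD, n = 3 each). Its log2 fold change was 0.36 ± 0.26 (SE) both against PBS (limma adjusted p = 0.690) and against FBMSC_EV (limma adjusted p = 0.934). The precursor of miR-150 of mature lymphocytes, MIR150, had 0, 3 and 1 reads in ABPC_EV, 7, 2 and 2 in FBMSC_EV and 0, 1 and 0 in PBS libraries. Scaled, its FBMSC_EV libraries all lay above its PBS libraries (limma adjusted p = 0.957), with a single PBS read behind the comparison.

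MIR147B, whose microRNA is induced in activated macrophages, varied most between animals among the abundant loci. It had 27, 39 and 17 reads in ABPC_EV, 62, 8 and 27 in FBMSC_EV and 16, 131 and 18 in PBS libraries. PBS replicate 2 alone held 131 of the 165 PBS reads. The log2 fold change was -1.68 ± 0.89 (SE) for ABPC_EV against PBS (limma adjusted p = 0.577) and -0.75 without PBS replicate 2.

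Loci that lie within 10000 bases of each other were read side by side. MIR29C and MIR29B-2, which give members of the miR-29 family known for repressing collagen and other matrix genes, had 120 and 53 reads in ABPC_EV, 64 and 52 in FBMSC_EV and 58 and 28 in PBS blood, each summed over 3 libraries. Their scaled log2 fold changes for ABPC_EV against PBS were -0.28 ± 0.39 and -0.27 ± 0.45 (SE, limma adjusted p = 0.834 and 0.866). MIR23A, MIR24-2 and MIR27A, which form 1 cluster, had 32, 34 and 13 reads in ABPC_EV, 37, 28 and 8 in FBMSC_EV and 29, 15 and 7 in PBS blood. Scaled, they were at -1.03 ± 0.56, -0.18 ± 0.68 and -0.60 ± 0.61 for ABPC_EV against PBS (SE, limma adjusted p = 0.591, 0.944 and 0.774). MIR24-1 and MIR27B had 20 and 7 reads over the 9 libraries, and MIR374B and MIR421 had 24 and 15.

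The let-7 family, which represses growth-promoting genes and whose processing LIN28A blocks, was represented by 3 loci. MIRLET7D had 3, 3 and 8 reads in ABPC_EV, 4, 2 and 5 in FBMSC_EV and 1, 5 and 5 in PBS libraries, and its groups overlapped. Its scaled log2 fold change was -0.65 ± 0.38 (SE) for ABPC_EV against PBS (limma adjusted p = 0.620). MIRLET7G had 5, 8 and 5 reads in ABPC_EV, FBMSC_EV and PBS blood, with all 5 PBS reads in replicate 2. MIRLET7B had 1 read in ABPC_EV, 6 in FBMSC_EV and none in PBS blood.

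For ABPC_EV against PBS, 0 of the 57 loci passed an adjusted p of 0.05 in limma after scaling, as did 0% of the 10596 genes tested. The smallest adjusted p of a locus was 0.227, for MIR186, which had no PBS reads. At an unadjusted p under 0.05, 10 loci were higher and 0 lower, beside 3.08% of all genes higher and 7.12% lower. All 10 had under 10 reads over the 3 PBS libraries, as did 39 of the 57 loci. The ABPC_EV libraries all lay above the PBS libraries at 12 loci, or 21.1%, against 6.45% of all genes, and 11 of these 12 had under 10 PBS reads in all. At several of the 12 the gap was smaller than what 1 read adds. All ABPC_EV libraries lay below all PBS libraries at 2 loci, or 3.51%, against 7.51% of all genes. By limma-voom on the recovered reads, 0 loci passed, as did 0% of all genes, and 1 locus (MIR590) had an unadjusted p under 0.05 and was higher, beside 2.27% of all genes higher and 7.07% lower. The voom count of genes depended on the filter, chosen after the data were seen: 7 genes passed with 10 or more reads in 3 libraries, which kept 16 of the 57 loci, and 30 with no filter, and none of them was one of the 57 loci. The median log2 fold change of the 57 loci was 0.17 by limma on scaled values and -0.19 by limma-voom, so its sign differed between the 2 methods, while that of all genes was 0.00 and -0.01.

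MIR590, which lies within the gene EIF4H, was 1 of the 12 loci whose ABPC_EV libraries all lay above the PBS libraries. It had 21, 9 and 30 reads in ABPC_EV, 5, 5 and 5 in FBMSC_EV and 2, 0 and 5 in PBS libraries. Every ABPC_EV library had more reads than each of the other 6. Scaled, MIR590 was at 7.78 ± 3.34 in ABPC_EV, 2.95 ± 0.289 in FBMSC_EV and 2.31 ± 2.05 in PBS blood (SD, n = 3 each). The log2 fold change was 1.61 ± 0.54 (SE) against PBS (limma adjusted p = 0.324) and 1.07 ± 0.54 against FBMSC_EV (limma adjusted p = 0.934), and without PBS replicate 2, which had no read, the first was 0.91. The host gene EIF4H, a translation initiation factor, had 1416, 1696 and 1797 reads in ABPC_EV, 1072, 1315 and 915 in FBMSC_EV and 459, 699 and 937 in PBS libraries. Scaled, EIF4H was level at 23.2 ± 2.83 in ABPC_EV, 22.6 ± 2.68 in FBMSC_EV and 24.9 ± 0.850 in PBS blood (SD, n = 3 each), with a log2 fold change of -0.10 ± 0.19 (SE, limma adjusted p = 0.874).

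The other loci with all ABPC_EV libraries above all PBS libraries were MIR922, MIR7173, MIR7-1, MIR324, MIR616, MIR186, MIR7188, MIR101-1, MIR7197, MIR604 and MIR374A. MIR922, in RUBCN, had 22, 27 and 36 reads in ABPC_EV, 10, 24 and 9 in FBMSC_EV and 3, 8 and 12 in PBS libraries, the only locus of the 12 with more than 10 PBS reads. Its scaled log2 fold change was 0.62 ± 0.33 (SE, limma adjusted p = 0.580). Scaled, its lowest ABPC_EV library was at 11.44 and its highest PBS library at 11.43, a gap smaller than what 1 read adds. Such gaps were also seen at MIR590 (3.99 and 3.93), MIR7-1 (3.52 and 3.46) and MIR324 (2.42 and 2.34). The same held for MIR7197 (1.36 and 1.25) and MIR616 (1.02 and 0.78). MIR7-1, in HNRNPK, had 10, 9 and 23 reads in ABPC_EV, 1, 11 and 0 in FBMSC_EV and 2, 0 and 5 in PBS libraries (limma adjusted p = 0.643 for ABPC_EV against PBS). MIR186, in ZRANB2, had 5, 2 and 2 reads in ABPC_EV, 4, 2 and 6 in FBMSC_EV and 0 in each PBS library, and the 3 reads that 0 reads allow in a PBS library would exceed the means of both vesicle groups after scaling. The same held for all 9 loci without PBS reads (MIR186, MIR7188, MIR101-1, MIR657, MIR604, MIR1249, MIRLET7B, MIR374A and MIR27B). Their fitted fold changes against PBS therefore give no direction or size, though the counts, p-values and figures here include them.

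As deposited, without scaling, 35 of the 57 loci, or 61.4%, passed as higher in ABPC_EV than in PBS (limma, adjusted p under 0.05), below the 90.9% of all genes that did so. MIR590 was among them, with a log2 fold change of 2.97 (adjusted p = 0.000418). The median of the 57 loci was then 1.23 beside 1.41 for all genes, and 56 of the 57 were above 0 beside 98.9% of all genes.

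**Figure D4:**
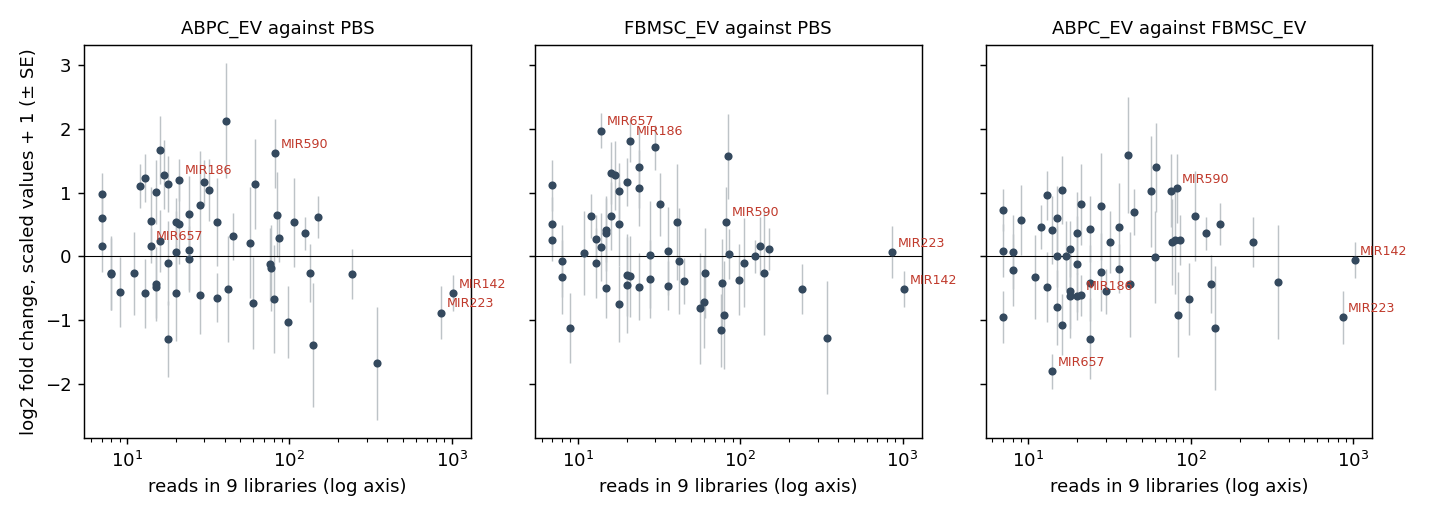
Log2 fold change of each of the 57 loci after scaling, with its SE, against its reads over all 9 libraries (log axis), for ABPC_EV against PBS, FBMSC_EV against PBS and ABPC_EV against FBMSC_EV. Fold changes beyond 1 in size lie mostly at loci with fewer than 100 reads, and for loci at 0 reads in a group the plotted value depends on the 1 added before the log2.

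For FBMSC_EV against PBS, again 0 of the 57 loci and 0% of all genes passed in limma after scaling. At an unadjusted p under 0.05, 9 loci were higher and 0 lower, beside 2.24% of all genes higher and 2.60% lower. All 9 had under 10 PBS reads in all, as did 39 of the 57 loci. By limma-voom 0 loci passed and 3 were higher at an unadjusted p under 0.05, beside 1.76% of all genes higher and 2.35% lower. The FBMSC_EV libraries all lay above the PBS libraries at 4 loci (MIR616, MIR186, MIR150 and MIR657), or 7.02%, against 4.96% of all genes, and below at 0 loci, against 4.71%. MIR616, in DDIT3, a stress-induced transcription factor, had 4, 6 and 3 reads in ABPC_EV, 8, 3 and 5 in FBMSC_EV and 0, 0 and 1 in PBS libraries. Its adjusted p was 0.275 for ABPC_EV and 0.475 for FBMSC_EV against PBS (limma). The host DDIT3 had scaled values of 1.93 ± 0.599 in ABPC_EV, 2.56 ± 1.1 in FBMSC_EV and 1.88 ± 0.554 in PBS blood (SD, n = 3 each).

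MIR657 had the smallest adjusted p of any locus, 0.104 for FBMSC_EV against PBS and 0.257 for ABPC_EV against FBMSC_EV (limma). It had 0, 0 and 1 reads in ABPC_EV, 5, 6 and 2 in FBMSC_EV and 0, 0 and 0 in PBS libraries. The FBMSC_EV libraries lay above the other 6 on 14 reads in all, 13 of them theirs. MIR657 met the level rule through FBMSC_EV, the group where it is high, since its only other value was 1.07 in ABPC_EV replicate 3. Against PBS, at 0 reads throughout, the fit depends on the 1 added before the log2. Its p-values are therefore a description and no support for a difference. Without FBMSC_EV replicate 3, MIR657 passed both comparisons (limma adjusted p = 0.0225 and 0.0421), with the same limits. By limma-voom on reads it passed neither (adjusted p = 0.999 and 0.558). Its host in human is AATK, a neuronal tyrosine kinase, whose rhesus gene also spans MIR1250. MIR1250 had 4, 27 and 4 reads in ABPC_EV, 17, 5 and 21 in FBMSC_EV and 1, 1 and 4 in PBS libraries, and AATK had 541, 1971 and 624, then 1040, 348 and 796, then 288, 863 and 442 in the same order. MIR1250 and AATK were both highest in replicate 2 of ABPC_EV and lowest in replicate 2 of FBMSC_EV within their groups. They differed elsewhere: in FBMSC_EV, MIR1250 was highest in replicate 3 and AATK in replicate 1. In PBS, AATK was highest in replicate 2, where MIR1250 had 1 read. Their scaled log2 fold changes were 0.65 and -0.42 for ABPC_EV against PBS, and 1.57 and -0.31 for FBMSC_EV against PBS.

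For ABPC_EV against FBMSC_EV, 0 of the 57 loci and 0% of all genes passed in limma after scaling, and 0 loci passed by limma-voom. At an unadjusted p under 0.05, 1 locus was higher (MIR7197) and 3 were lower (MIR657, MIRLET7B and MIR223), beside 1.39% and 3.97% of all genes, and by limma-voom 0 loci were higher and 2 lower at such a p, beside 1.66% and 4.58%. The ABPC_EV libraries all lay above the FBMSC_EV libraries at MIR590, MIR4743, MIR7197 and MIR155HG, 7.02% of the loci against 4.23% of all genes. They all lay below at MIR374B and MIR657, 3.51% of the loci against 6.80% of all genes. MIR4743, in CTIF, had 6, 13 and 8 reads in ABPC_EV, 3, 4 and 2 in FBMSC_EV and 2, 1 and 6 in PBS libraries. MIR374B had 0, 2 and 4 reads in ABPC_EV, 3, 9 and 3 in FBMSC_EV and 0, 3 and 0 in PBS libraries.

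Host genes allow each hairpin to be set beside the transcript around it. By the spans of the RefSeq gene table, 44 loci lay inside a gene and 11 between genes, and 34 loci had a host in the deposited table, making 35 pairs with 33 hosts. Per length, the mean deposited value of the locus exceeded that of its host in 11 of the 35 pairs. The loci had to reach the level rule and the hosts did not, so a host below that level is exceeded almost by selection. Most of the 11 pairs have such a host, RTTN and MYH7B below among them, so the count is a description only. MIR7173 averaged 6.03 beside 0.600 for RTTN, MIR499 1.54 beside 0.384 for MYH7B, a myosin gene, and MIR631 7.86 beside 3.53 for NEIL1, a DNA glycosylase. At the other end MIR7-1 averaged 4.58 beside 70.7 for HNRNPK, an RNA-binding protein, and MIR26B 1.19 beside 27.3 for CTDSP1. Reads at a hairpin and reads of the transcript that contains it cannot be told apart here, and without strand nor can those of an antisense gene.

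Of the 33 hosts, 26 were tested and 0 passed in any comparison by limma after scaling, with 1 at an unadjusted p under 0.05 in each. At such a p, 3.08% of all genes were higher and 7.12% lower for ABPC_EV against PBS. These shares were 2.24% and 2.60% for FBMSC_EV against PBS, and 1.39% and 3.97% for ABPC_EV against FBMSC_EV. Locus and host had the same sign of scaled log2 fold change in 12 of 27 pairs for ABPC_EV against PBS, 14 for FBMSC_EV against PBS and 15 for ABPC_EV against FBMSC_EV. Among these loci, MIR186, MIR657, MIR604 and MIR1249 had no PBS reads, so their signs against PBS carry no weight. In the 27 pairs the hosts lay between -0.62 and 0.47 for ABPC_EV against PBS and their loci between -1.39 and 1.61. The loci rest on fewer reads than their hosts, and the part of counting error in their wider range was not tested. MIR611, in TMEM258, had 21, 0 and 33 reads in ABPC_EV, 14, 18 and 13 in FBMSC_EV and 3, 25 and 13 in PBS libraries, with a log2 fold change of -1.39 ± 0.97 (SE, limma adjusted p = 0.678) for ABPC_EV against PBS, beside -0.08 for TMEM258, and of -0.065 without ABPC_EV replicate 2, which had no MIR611 read. MIR631 was at -0.12 beside 0.34 for NEIL1, and MIR199A-2 at -0.73 beside -0.28 for DNM2, a membrane-fission GTPase.

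**Figure D5:**
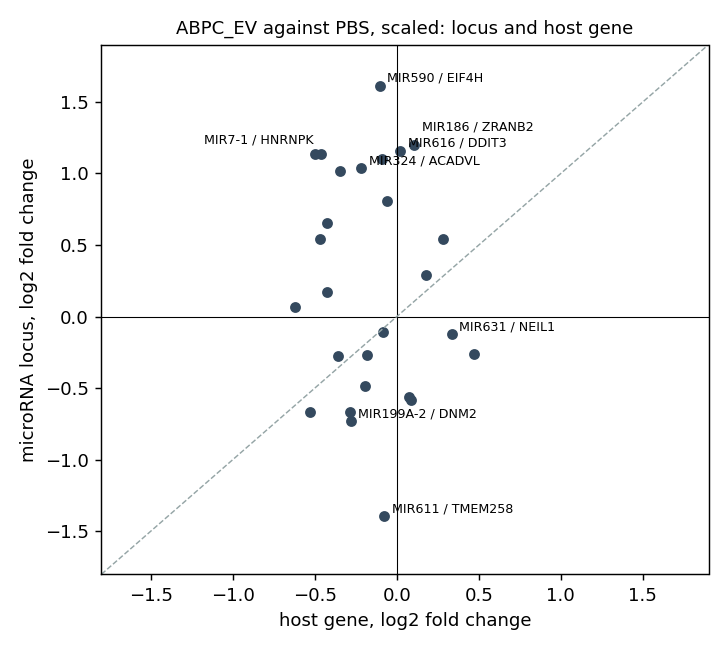
Scaled log2 fold change of ABPC_EV against PBS for 27 pairs of a microRNA locus (vertical axis) and its host gene (horizontal axis), with a dashed line of equality. Hosts stay between -0.62 and 0.47 while loci, which have fewer reads, span a wider range. MIR590 lies at 1.61 ± 0.54 (SE) on 82 reads beside -0.10 ± 0.19 for EIF4H on 10306 reads. The part of counting error in the wider range was not tested, and MIR186, MIR657, MIR604 and MIR1249 had no PBS reads.

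The genes that make and use microRNAs were measured with far more reads. Of 35 listed genes of the pathway, 32 were tested, and 0 passed in any of the 3 comparisons by limma or limma-voom after scaling. The count at an unadjusted p under 0.05 was 1 for ABPC_EV against PBS and 0 for each of the other 2 comparisons, by both tools. By limma, 3.08% of all genes were higher and 7.12% lower at such a p for ABPC_EV against PBS. These shares were 2.24% and 2.60% for FBMSC_EV against PBS, and 1.39% and 3.97% for ABPC_EV against FBMSC_EV. By limma-voom they were 2.27% and 7.07%, 1.76% and 2.35%, and 1.66% and 4.58% in the same order. The median scaled log2 fold change of the 32 pathway genes was 0.12 for ABPC_EV against PBS, 0.09 for FBMSC_EV against PBS and 0.06 for ABPC_EV against FBMSC_EV. DGCR8, the RNA-binding partner of DROSHA, was the gene with the smallest p, at 3.22 ± 0.716 in ABPC_EV, 2.41 ± 0.669 in FBMSC_EV and 1.89 ± 0.524 in PBS blood (SD, n = 3 each), with a log2 fold change of 0.55 for ABPC_EV against PBS (limma adjusted p = 0.413). DROSHA averaged 2.27 ± 0.262 in ABPC_EV, 1.80 ± 0.156 in FBMSC_EV and 1.76 ± 0.418 in PBS blood, and DICER1 1.30 ± 0.412, 1.09 ± 0.244 and 0.811 ± 0.226 in the same order (SD, n = 3 each). AGO2, the slicing Argonaute, averaged 4.74 ± 0.932 in ABPC_EV, 6.06 ± 1.68 in FBMSC_EV and 6.24 ± 1.5 in PBS blood (SD, n = 3 each; limma adjusted p = 0.681 for ABPC_EV against PBS). LIN28A, which blocks let-7 processing, was too low to test, with 6 reads over the 9 libraries. The other untested genes, AGO3 and LIN28B, had no values in the deposited table. As deposited, all 32 passed as higher in ABPC_EV than in PBS, beside 90.9% of all genes.

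The remaining 75 microRNA symbols were barely covered. Of these, 40 had reads in a single library. The recovered length equalled the RefSeq length for 64 of the 73 that have one there. Where it did not, the smallest length that fits was taken, so the recovered reads may be a lower bound. The red cell locus MIR451 reached the level rule but is listed under another symbol, so the counts that follow leave it out. Of 26 microRNA symbols listed for blood cells, 12 were in the table and 7 reached the level rule. The 5 that did not were MIR144, MIR342, MIR146A, MIR185 and MIR15A. They had 12, 5, 5, 1 and 1 recovered reads over the 9 libraries, in that order.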

How the data were processed

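Whole-blood RNA of 9 rhesus macaques, 3 per group, was measured by RNA-seq (genome build Mmul_10, per the submitters' processing notes). No source used here names the aligner, the counting program or any globin removal. The deposited values are log2 values: undoing the log2 and an added 0.5 gives per-million values that sum to 1000000 in each library but FBMSC_EV replicate 3 and ABPC_EV replicate 2 (1000002), with each gene divided by a length. All 9 columns map to samples, and 0 were left over.

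Whole reads were recovered with Python 3.11.15, numpy 2.4.6 and pandas 2.3.3. For each gene, the smallest whole length was found that makes its values whole in all libraries. The largest distance from a whole number was 0.0164 reads, 3 genes were not solved, and of 1000 control genes 0 were solved after their values were moved by up to 1%. A read here may be a read pair, and a factor common to all libraries of a gene cannot be told apart. Recovered reads cover counting error only.

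Values were median-ratio scaled and tested with limma 3.58.1 (R 4.3.3) with a trend, on log2(scaled value + 1), for the 10596 genes that reached 1 in at least 3 libraries, with group as the only term over the 9 samples. The scripts were tested on simulated data with large changes in genes of higher level, so recovery at loci with few reads was not tested. Benjamini-Hochberg adjustment ran over all genes tested, with a threshold of 0.05. A fold change on this scale understates the change of low genes. Alternatives were other scalings, a pseudocount of 0.5, other filters, limma-voom on recovered reads (with 2 more filters added after the data were seen), the replicate number as a term, and leaving out each library.

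The members, lists and named-gene rule were chosen with earlier results of these data known. Loci named with values were MIR590, the let-7 members, the 10 highest members, those at 1 or more in all libraries, per comparison the 5 smallest p in each direction, and the blood-cell list, 31 in all. Others were named after their values were seen. Hosts come from gene spans of the RefSeq table of T2T-MMU8v2.0, another assembly without strand here, so no coordinates are given. The host of MIR657 is the human one. The planned limit to hosts on the same strand could not be applied.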

Additional observations from a re-analysis of the deposited data

How the results depend on the processing

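Scaling decided the calls. As deposited, ABPC_EV against PBS gave 9639 genes past the threshold, 35 microRNA loci, 25 hosts and 32 pathway genes, FBMSC_EV against PBS gave 28 genes and 3 loci, and ABPC_EV against FBMSC_EV gave 68 genes and 3 loci, where median-ratio scaling gave 0 in each. Upper-quartile scaling gave 2 genes for ABPC_EV against PBS, a filter of at least 1 in all columns 1, and no filter 4 for that comparison, 1 for FBMSC_EV against PBS and 5 for ABPC_EV against FBMSC_EV. With filters chosen after seeing the data, limma-voom on recovered reads gave 7 genes for ABPC_EV against PBS with 10 or more reads in 3 libraries, and with no filter 30 for that comparison and 2 for ABPC_EV against FBMSC_EV, with 0 loci, hosts and pathway genes in each comparison. Leaving out 1 library at a time gave 0 to 172 genes for ABPC_EV against PBS (172 without PBS replicate 3), 0 to 2 for FBMSC_EV against PBS and 0 to 1 for ABPC_EV against FBMSC_EV, with 0 to 1 locus in each of the last 2 comparisons (MIR657, without FBMSC_EV replicate 3). The labels do not say that animals share a replicate number, so the numbers were not taken as pairs. Deviations of same-numbered animals from their group means had correlations of -0.25 to 0.28, and those of differently numbered animals were not set beside them. The replicate block gave 1 gene for FBMSC_EV against PBS and 0 loci in each comparison. Of 93 log2 fold changes of named loci, 45 kept their sign in every alternative run. As deposited, 30 were above 0 that were below 0 scaled, because that scale leaves in the shift common to all genes (the median of all genes was 1.41, 0.70 and 0.71 in the 3 comparisons). The cause of the other changes of sign was not tested. The log2 fold changes that changed sign were as follows. Those against PBS of MIRLET7B, MIR657 and MIR374A were fitted against 0 PBS reads, and no direction can be read from them. As deposited, for ABPC_EV against PBS, it was 0.75 for MIRLET7D, 0.73 for MIRLET7G, 1.44 for MIR142, 1.11 for MIR223, 0.26 for MIR147B, 1.63 for MIR29C, 0.11 for MIR611, 1.57 for MIR29B-2, 0.76 for MIR23A, 1.58 for MIR24-2, 0.13 for MIR33B, 1.56 for MIR631 and 0.49 for MIR27A. As deposited, for FBMSC_EV against PBS, it was 0.22 for MIRLET7D, 0.55 for MIR142, 0.49 for MIR29C, 0.68 for MIR611, 0.58 for MIR23A, 0.80 for MIR937, 0.48 for MIR24-2, 0.23 for MIR7-1, 0.23 for MIR155HG and 0.32 for MIR27A. As deposited, for ABPC_EV against FBMSC_EV, it was 0.53 for MIRLET7D, 0.89 for MIR142, 0.50 for MIR147B, 0.45 for MIR29B-2, 0.18 for MIR23A, 0.12 for MIR616 and 0.17 for MIR27A. By limma-voom, for ABPC_EV against PBS, it was -0.85 for MIRLET7B, -0.85 for MIR657, -0.43 for MIR150 and -0.43 for MIR374B. By limma-voom, for FBMSC_EV against PBS, it was 0.068 for MIR937, -0.0079 for MIR572, -0.36 for MIR7197, -0.30 for MIR374A and 0.18 for MIR155HG. With upper-quartile scaling, for ABPC_EV against PBS, it was 0.0011 for MIR631. With upper-quartile scaling, for ABPC_EV against FBMSC_EV, it was 0.070 for MIR142. With a pseudocount of 0.5, for ABPC_EV against PBS, it was 0.11 for MIRLET7G. With a pseudocount of 0.5, for FBMSC_EV against PBS, it was 0.041 for MIR155HG. With 1 library left out at a time, for ABPC_EV against PBS it ran from -0.57 to 0.88 for MIRLET7G, -0.64 to 0.086 for MIR29C, -0.76 to 0.20 for MIR29B-2, -0.39 to 1.12 for MIR937, -0.64 to 0.067 for MIR24-2, -0.070 to 0.58 for MIR572, -0.52 to 0.48 for MIR631, -0.12 to 0.65 for MIR150, -0.29 to 0.94 for MIR374B and -1.30 to 0.051 for MIR27A. For FBMSC_EV against PBS it ran from -0.17 to 0.996 for MIR590, -0.38 to 0.46 for MIR223, -0.83 to 0.33 for MIR611, -0.33 to 0.64 for MIR29B-2, -0.22 to 0.33 for MIR922, -0.85 to 0.15 for MIR23A, -1.02 to 0.48 for MIR937, -1.29 to 0.23 for MIR24-2, -0.33 to 0.26 for MIR572, -1.01 to 0.29 for MIR7-1 and -0.26 to 0.30 for MIR155HG. For ABPC_EV against FBMSC_EV it ran from -0.49 to 0.0079 for MIRLET7D, -0.20 to 0.10 for MIR142, -1.20 to 0.31 for MIR147B, -0.14 to 0.60 for MIR29C, -1.79 to 0.20 for MIR611, -0.42 to 1.11 for MIR24-2, -0.11 to 0.62 for MIR572, -1.17 to 0.043 for MIR451 and -0.96 to 0.39 for MIR27A. Depth limits all of this, since 38 of the 57 loci had under 50 reads in 9 libraries together.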
